A study of Caenorhabditis elegans with 10 samples.

Results

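Ribosome footprints, short pieces of mRNA left inside ribosomes after nuclease treatment and so a measure of translation, were examined for 10 TGF-beta signalling genes among the 20182 genes of the count table of a larval time course of Caenorhabditis elegans. The genes were chosen by name and not by their measured values: the ligands dbl-1 and daf-7, the receptors daf-4 and sma-6, the Smads sma-2, sma-3 and sma-4, the Smad cofactor sma-9 and the modulators sma-10 and lon-2. The worms were of N2, the wild-type laboratory strain, with no mutation or drug in any group. Eggs hatched overnight, the young larvae were placed on NGM plates with the bacterial strain NA22, and whole worms were collected at 2 h intervals between 18 h and 36 h on food. Each of the 10 times has 1 library and there are no replicates, so an error given with a fitted value is the standard error from the fit.

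TGF-beta signals pass from a secreted ligand to a pair of receptor kinases, which phosphorylate receptor-regulated Smads. These join a co-Smad and act on transcription in the nucleus. In the worm, DBL-1 is the ligand of a BMP-like branch that sets body size and patterns the male tail, and its mutants are small (Sma) or, when an inhibitor is lost, long (Lon). DAF-7 is the ligand of a second branch that keeps well-fed larvae from entering the dauer stage, a resting form. DAF-4 is the type II receptor of both branches.

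The 10 genes passed the filter on low counts and had between 56 and 1658 counts in a library. The shallowest library, that of 24 h, held 16723638 counts, and the deepest, that of 26 h, held 33696423. The Ensembl annotation of WBcel235 lists them as protein-coding genes with no coding base shared with another gene. Values are in CPM, counts scaled to a library of 1000000 with TMM factors of 0.829 to 1.16, and their intervals are exact Poisson intervals that cover counting error only. An 8 h cycle and a linear change over the 18 h sampled were fitted to all 13958 tested genes with edgeR, and genes were called where the size reached 1 log2 with an adjusted p below 0.05.

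Of the 10 genes 1 was called as oscillating, sma-3, against 22.7% of all tested genes. In the other comparison 2 fell over the 18 h, daf-7 and daf-4, against 10.8% of all tested genes. None rose by edgeR or DESeq2, against 15.7% and 16.3% of all tested genes. None rose by edgeR at an unadjusted p under 0.05 either. The share of all tested genes at that unadjusted threshold was not computed. The median difference between peak and trough was 0.55 log2 among the 10 genes and 0.59 log2 among all tested genes. The median linear change was -0.50 log2 among the 10 genes and -0.02 log2 among all tested genes. With total counts in place of TMM, 3 of the 10 genes oscillated, against 25.6% of all tested genes, and 3 fell, against 17.4%. That scaling moved the linear change of the median tested gene by -0.31 log2. Among all tested genes 1940 then rose and 2435 fell, whereas 2186 rose and 1509 fell with TMM.

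**Figure D1:**
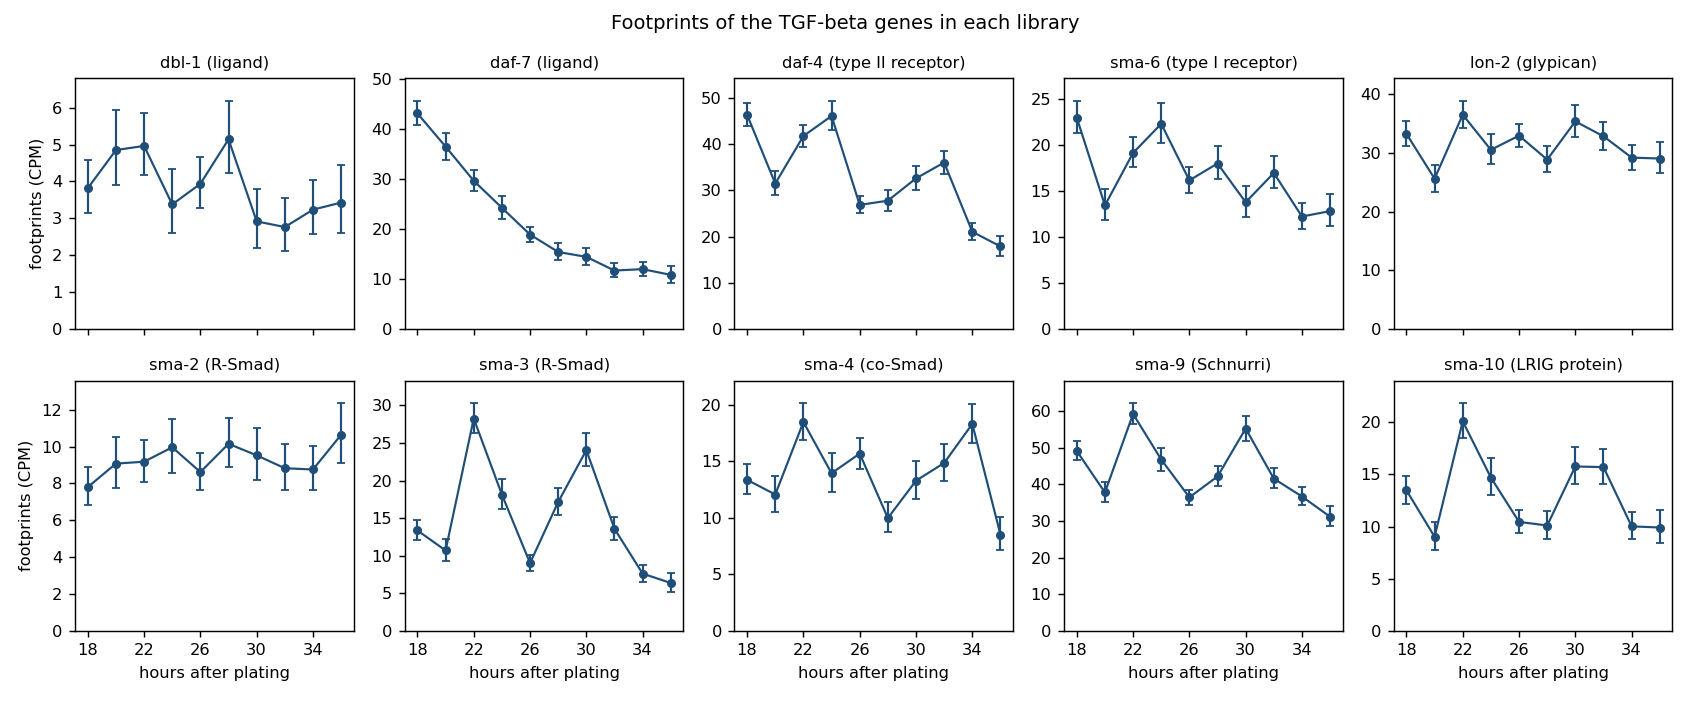
Footprint level of each gene in CPM (vertical axis from 0, different for each panel) against hours after plating (horizontal axis). Points are single libraries and bars are 95% Poisson intervals of the count. Points of daf-7 end at 10.8 CPM (36 h), against 43.0 CPM at the start (18 h), and those of sma-3 stand highest at 22 h and 30 h.

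Levels were compared between genes after division by the length of the longest annotated coding sequence. From high to low, the means over the 10 libraries were 20.62 ± 2.2 CPM per kb for lon-2, 20.57 ± 10.8 for daf-7, 14.7 ± 4.43 for daf-4, 12.6 ± 6.06 for sma-3 and 8.77 ± 2.01 for sma-6 (SD over the 10 times). Below these came sma-4 at 8.16 ± 1.89 CPM per kb, sma-2 at 7.38 ± 0.667, sma-9 at 6.48 ± 1.32, sma-10 at 4.89 ± 1.37 and dbl-1 at 3.51 ± 0.792. The ranges of all 9 pairs of neighbours in this order overlapped. The gene ranked higher was also the higher one in 5 to 8 of 10 libraries for 8 of those pairs, and in 10 of 10 for sma-9 over sma-10. The low place of dbl-1 rests on 56 to 139 counts a library. A mean over shorter coding forms would be higher per kb for sma-9, for which 16 coding transcripts are annotated.

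Of the ligands, daf-7 had a linear change that was called and dbl-1 did not. The difference between these changes was not tested. Footprints of daf-7 (WBGene00000903), the dauer branch ligand made mainly in the ASI sensory neurons of the head, were 43.0, 36.4, 29.6, 24.2, 18.8, 15.3, 14.4, 11.6, 11.9 and 10.8 CPM from 18 h to 36 h. The level was lower than 2 h before at 8 of 9 steps, and 0.42 to 0.70 times that of 8 h before in 6 of 6 pairs of libraries. Over the 18 h daf-7 fell by 2.11 ± 0.16 log2, to 0.232 of the starting level on the fitted line (edgeR quasi-likelihood test, adjusted p = 1.47e-05). This fall was called in 21 of 21 alternatives, with changes of -2.42 to -2.02 log2. The fitted 8 h difference was 0.13 ± 0.15 log2 (adjusted p = 0.763).

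Footprints of dbl-1 (WBGene00000936), the body size ligand made mainly in neurons of the ventral cord, were 3.81, 4.85, 4.96, 3.38, 3.93, 5.14, 2.91, 2.76, 3.23 and 3.42 CPM. The highest library was that of 28 h, with a Poisson interval of 4.24 to 6.18 CPM. The lowest was that of 32 h, with an interval of 2.11 to 3.545 CPM. Neither the linear change of -0.56 ± 0.23 log2 (adjusted p = 0.0921) nor the cycle of 0.55 ± 0.21 log2 (adjusted p = 0.158) passed. Within a library, where scaling plays no part, daf-7 had 11.3 counts for each dbl-1 count at 18 h, 4.79 at 26 h and 3.68 at 34 h. At 20 h, 28 h and 36 h the ratio was 7.51, 2.98 and 3.14.

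Markers of neurons also became a smaller share of footprints. The summed level of 8 neuron markers was 345 CPM at 36 h, the lowest library, against 632 CPM at 18 h, the highest. Of the 8, 5 fell, against 10.8% of all tested genes. With median-ratio factors 3 fell, against 9.82%, and by DESeq2 3, against 10%. The synaptic genes rab-3, a vesicle GTPase, and ric-4, a SNARE, fell by 1.36 ± 0.10 and 1.45 ± 0.09 log2. The linear change of another neuron marker, snb-1, was -0.21 ± 0.14 log2 and was not called (edgeR adjusted p = 0.249). Of the 5 markers of cholinergic neurons 3 fell, against the same 10.8%, among them the acetylcholine transporter unc-17 by 1.42 ± 0.14 log2. Counts of daf-7 were 6.80%, 4.4% and 3.19% of the summed neuron marker counts at 18 h, 26 h and 34 h. Those of dbl-1 were 0.603%, 0.920% and 0.867% at the same times. The fall of daf-7 was not tested against that of the neuron markers.

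Of 5 ASI markers, 2 passed the filter on low counts. The insulin-like gene daf-28, made in ASI and ASJ neurons, fell by 1.63 ± 0.21 log2 (edgeR adjusted p = 0.000324). There were 1.70, 1.76 and 1.40 daf-7 counts for each daf-28 count at 18 h, 26 h and 34 h, and 1.13 at 36 h. The other marker that passed, the G protein gene gpa-4, had 0.511, 3.08, 3.64, 1.42, 1.8, 3.29, 2.13, 0.498, 0.45 and 0.184 CPM from 18 h to 36 h. It was higher at 20 h and 22 h than at 18 h, while daf-7 and daf-28 were lower, and its linear change of -1.96 ± 0.95 log2 was not called (adjusted p = 0.199). The receptor genes str-3, srbc-64 and srbc-66 were at or under 0.0818 CPM, near 0. In whole worms, fewer cells of a type, less RNA or translation per cell and more footprints from other tissues cannot be told apart. Germline markers, for comparison, summed to 1269 CPM at 36 h, against 255 CPM at 18 h. Of these markers 3 of 3 tested rose, against 15.7% of all tested genes. Falls were also called outside neurons, in 2 of 3 pharynx, 1 of 6 epidermal and 1 of 4 body-wall muscle markers. The share of all tested genes that fell was 10.8%. Of the 3 tested intestine markers 0 fell. The linear changes were -1.782 ± 0.498 log2 for ceh-22 and -1.207 ± 0.314 log2 for pha-4 (pharynx). They were -1.953 ± 0.27 log2 for elt-1 (epidermis) and -1.049 ± 0.124 log2 for hlh-1 (muscle). The fall of elt-1 was called in 21 of 21 alternatives. That of hlh-1 was not called by DESeq2 (-0.983 log2), with median-ratio factors (-0.992 log2) or without the 32 h library (-0.979 log2). The fall of pha-4 was not called without the 32 h, 34 h or 36 h library (-1.1, -0.976 and -1.02 log2). For ceh-22, with 75 counts at 18 h and 8 at 36 h, the call was lost without either of those libraries (-1.65 and -1.81 log2). The part of tissue makeup in the trends of the ligands was not tested.

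**Figure D2:**
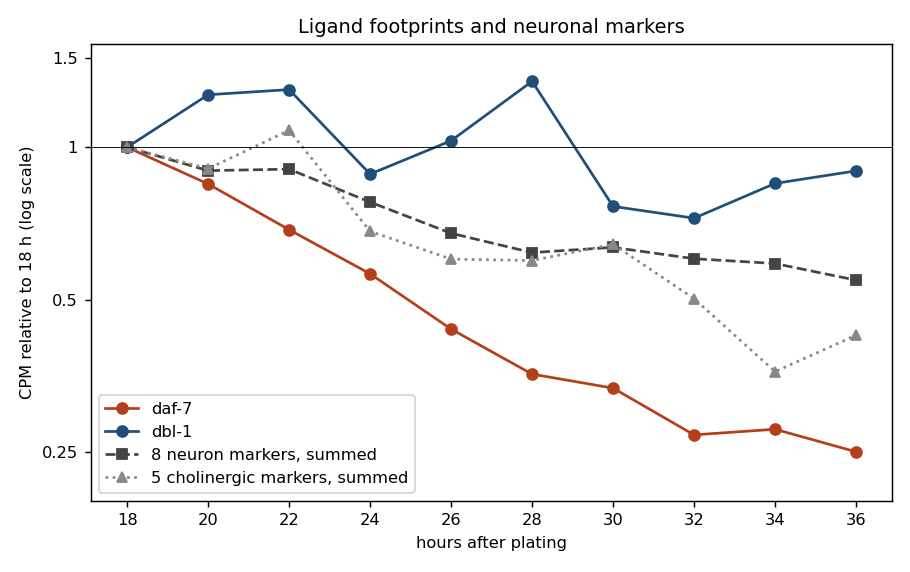
CPM relative to the 18 h library (log axis) against hours after plating, for daf-7 and dbl-1 and for the summed neuron and cholinergic markers, with 1 library a point. At 36 h daf-7 stood at 0.25, dbl-1 at 0.898, the 8 neuron markers at 0.546 and the 5 cholinergic markers at 0.425 of their 18 h level.

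The linear change of the type II receptor was called and that of the type I receptor was not. The difference between these changes was not tested. The shared receptor gene daf-4 (WBGene00000900) had 46.4, 31.5, 41.8, 46.2, 26.9, 27.8, 32.6, 36.1, 21.03 and 17.9 CPM. It was lower than 8 h before in 6 of 6 pairs of libraries, and highest at 18 h and 24 h. It fell by 1.03 ± 0.14 log2 over the 18 h (edgeR adjusted p = 0.000546). The size lay at the limit of 1 log2, and the change was -0.97 log2 with median-ratio factors and with a period of 7.5 h, -0.98 log2 by DESeq2, -0.87 log2 without the 18 h library and -0.97 log2 without the 34 h library. In the 21 alternatives the adjusted p of this trend was at most 0.0337. The 8 h cycle of daf-4 was 0.76 ± 0.13 log2 and peaked at 31.45 ± 0.21 h. It met the p threshold (adjusted p = 0.00737) but not the minimum size, which it reached with total counts (1.04 log2) and on the deposited values (1.04 log2).

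The type I receptor of the body size branch, sma-6 (WBGene00004860), had 22.9, 13.4, 19.1, 22.3, 16.1, 17.9, 13.7, 16.9, 12.2 and 12.8 CPM. Its highest libraries, at 18 h and 24 h, were those of daf-4 as well. Neither its linear change of -0.62 ± 0.23 log2 (adjusted p = 0.0608) nor its cycle of 0.37 ± 0.21 log2 (adjusted p = 0.365) was called. Counts of daf-4 for each count of sma-6, per coding length, ranged from 1.19 at 36 h to 2.03 at 30 h. So daf-4, which serves both branches, had more footprints per coding length than sma-6 in each of the 10 libraries.

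Among the Smads, sma-3 was called as oscillating, and sma-2 and sma-4 were not. The receptor-regulated Smad sma-3 (WBGene00004857) had 13.4, 10.7, 28.2, 18.1, 9.01, 17.1, 24.0, 13.6, 7.61 and 6.36 CPM. Its highest levels, at 22 h and 30 h, lie 8 h apart, and each was followed by a library under 10 CPM 4 h later. The fitted difference was 1.49 ± 0.31 log2, or 2.80-fold, with the peak at 30.45 ± 0.26 h (edgeR adjusted p = 0.0158). The pairs did not repeat evenly: the level at 28 h was 1.6 times that at 20 h, and the level at 36 h was 0.371 times that at 28 h. Without the 22 h library the difference was 1.48 log2 (adjusted p = 0.0646) and without the 30 h library 1.36 log2 (adjusted p = 0.0736), so the call was lost at a like size. The same held with no time term in the fit, at 1.44 log2 (adjusted p = 0.0752). Its linear change of -0.89 ± 0.34 log2 was not called (adjusted p = 0.0769), but was at -1.2 log2 with total counts, -1.18 log2 on the deposited values and -1.17 log2 without the 20 h library.

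The other receptor-regulated Smad, sma-2 (WBGene00004856), had 7.80, 9.08, 9.18, 9.96, 8.62, 10.2, 9.52, 8.82, 8.76 and 10.6 CPM. Between the lowest and the highest library it differed 1.36-fold, the smallest such span of the 10 genes. The cycle of 0.21 ± 0.13 log2 and the linear change of 0.18 ± 0.14 log2 were not called (adjusted p = 0.425 and 0.338), and the sign of that change turned to -0.13 log2 with total counts. The counts of sma-3 for each count of sma-2 in the same library were 1.71, 1.18, 3.08, 1.82, 1.05, 1.69, 2.52, 1.54, 0.869 and 0.598. The ratio was highest at 22 h and 30 h and below 1 only at 34 h and 36 h. The difference between the cycles of these genes was not tested.

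The co-Smad sma-4 (WBGene00004858) had 13.4, 12.1, 18.5, 13.9, 15.7, 9.97, 13.3, 14.8, 18.3 and 8.501 CPM. It was high at 22 h and again at 34 h, 12 h later, and low at 28 h and 36 h. Its cycle of 0.59 ± 0.27 log2 and linear change of -0.18 ± 0.30 log2 were not called (adjusted p = 0.288 and 0.669). The sign of that change turned to 0.03 log2 without the 22 h library and 0.10 log2 without the 36 h library. The ratio of sma-3 to sma-4 counts was highest at 30 h (1.81) and 28 h (1.72), and lowest at 34 h (0.416) and 26 h (0.575). For sma-2 over sma-4 the ratio was highest at 28 h and 36 h, at 1.02 and 1.25.

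**Figure D3:**
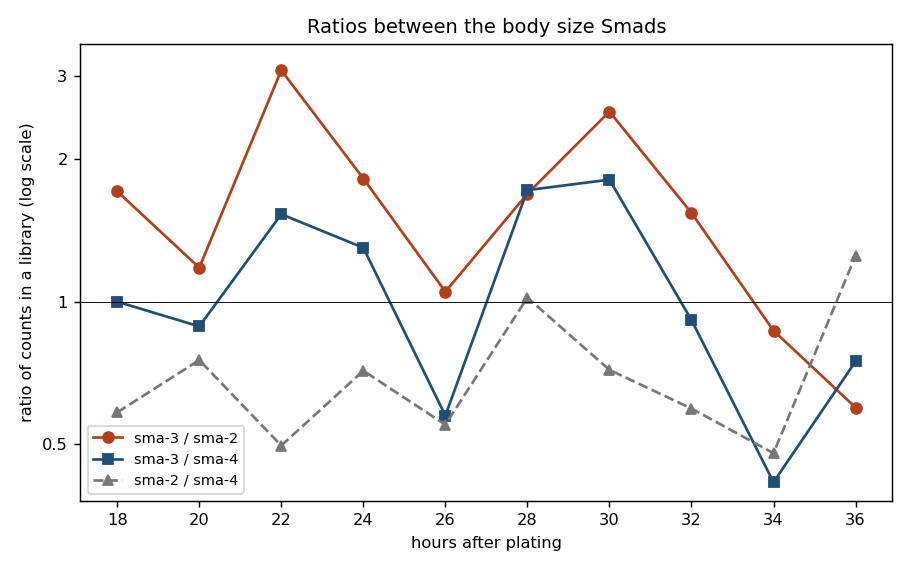
Ratio of the counts of a pair of Smad genes in the same library (log axis) against hours after plating, with 1 library a point. The ratio of sma-3 to sma-2 stands at 3.08 at 22 h and 2.52 at 30 h, and at 0.598 at 36 h.

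Among the nuclear cofactor and the modulators, sma-10 and sma-9 were highest in the same libraries as sma-3. The zinc-finger protein gene sma-9 (WBGene00004862), the worm Schnurri, which acts with the Smads, had 49.1, 37.8, 59.2, 46.8, 36.4, 42.1, 55.2, 41.5, 36.7 and 31.1 CPM. Its highest libraries were 22 h and 30 h. The cycle of 0.55 ± 0.16 log2 missed both the p threshold (adjusted p = 0.0585) and the minimum size. So did the linear change of -0.44 ± 0.17 log2 (adjusted p = 0.0733). The cycle was called in 0 of 21 alternatives, at 0.45 to 0.85 log2. As a description over the 10 libraries, which share depth and scaling, log2 levels of sma-9 and sma-3 had a Pearson correlation of 0.94, the highest among the 10 genes.

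The LRIG-type membrane protein gene sma-10 (WBGene00020649), which promotes signalling through the receptors, had 13.5, 9.02, 20.1, 14.7, 10.45, 10.1, 15.8, 15.7, 10.02 and 9.91 CPM. The 22 h, 30 h and 32 h libraries were the highest, and levels at 20 h, 26 h, 28 h, 34 h and 36 h lay between 9.02 and 10.45 CPM. Its cycle of 0.93 ± 0.18 log2 peaked at 31.05 ± 0.24 h and had an edgeR adjusted p of 0.0127, but stayed below the minimum size. It was called with total counts (1.23 log2), on the deposited values (1.2 log2), with quadratic time (1.02 log2) and without the 18 h or the 24 h library (1.05 and 1.06 log2). On average its log2 level differed by 0.18 between libraries 8 h apart and by 0.66 between libraries 4 h apart. For sma-3 these differences were 0.59 and 1.00 log2, and for daf-7 0.95 and 0.45 log2.

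The glypican gene lon-2 (WBGene00003056), whose product binds DBL-1 and holds back its signal, had 33.3, 25.6, 36.5, 30.5, 33.0, 28.9, 35.4, 32.9, 29.2 and 29.1 CPM. Its libraries lay within a 1.43-fold span. Neither the cycle of 0.27 ± 0.13 log2 (adjusted p = 0.311) nor the linear change of -0.05 ± 0.15 log2 (adjusted p = 0.806) was called, and that change was 0.01 log2 with median-ratio factors. Per coding length, lon-2 had 3.79 footprints for each of dbl-1 at 20 h, the lowest library, and 8.72 at 30 h, the highest. The inhibitor thus had more footprints per coding length than the ligand in each of the 10 libraries.

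**Figure D4:**
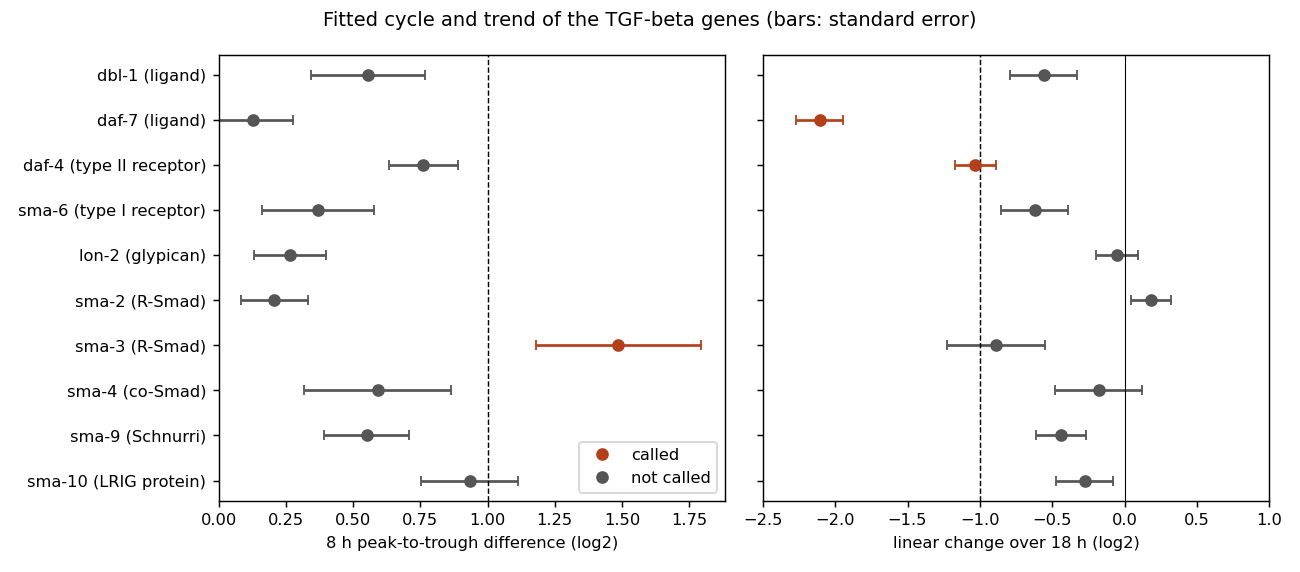
Fitted 8 h difference between peak and trough (left, log2) and linear change over 18 h (right, log2) of the 10 genes, with standard errors as bars and the size required for a call as dashed lines. The points of sma-3 on the left (1.49 log2) and of daf-7 and daf-4 on the right (-2.11 and -1.03 log2) are called.

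The genes whose course was most like that of sma-3 were sought among 5055 tested genes with a gene-class name and a mean of at least 10 CPM. The zinc-finger gene ztf-29 (WBGene00013438), the nuclear receptor gene nhr-31 (WBGene00003625) and the peroxisomal gene prx-11 (WBGene00004196) had the highest Pearson correlations of log2 CPM over the 10 libraries, at 0.988, 0.986 and 0.980. Their fitted differences were 3.92 ± 0.82, 1.18 ± 0.18 and 1.88 ± 0.30 log2, with peaks at 30.2 h, 30.5 h and 30.6 h. The correlations are a description of these libraries.

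The other 5 genes listed for the dauer branch had linear changes below 0, and 1 of them fell, against 10.8% of all tested genes. This was the type I receptor gene daf-1, by 1.17 ± 0.23 log2 (edgeR adjusted p = 0.00454, and -0.94 log2 without the 36 h library). With total counts 4 fell, against 17.4% of all tested genes. That scaling moved the linear change of the median tested gene by -0.31 log2. The co-Smad-like daf-3 and the Sno/Ski-like daf-5, which DAF-7 signalling holds back, had linear changes of -0.74 ± 0.18 and -0.73 ± 0.14 log2, which met the p threshold (adjusted p = 0.0111 and 0.00356) but not the minimum size. The most abundant of the 5 was daf-5, at 17.7 CPM in its lowest library (36 h) and 37.3 CPM in its highest (22 h). The receptor-regulated Smad daf-14 had a change of -0.80 ± 0.19 log2 (adjusted p = 0.0113), and daf-8, another one, had -0.18 ± 0.11 log2 (adjusted p = 0.222). None of the 5 was called as oscillating by edgeR or DESeq2, against 22.7% of all tested genes by either. In the edgeR fit 4 had an unadjusted p under 0.05 for the cycle, a threshold at which the share of all tested genes was not computed. With no minimum size 3 met the adjusted p threshold, against 34.4% of all tested genes. With total counts 1 was called, daf-3 at 1.15 log2, against 25.6% of all tested genes.

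Of the other ligands, unc-129, which guides axons, fell by 1.31 ± 0.23 log2 (edgeR adjusted p = 0.00239), and this call held in 21 of 21 alternatives. The ligand gene tig-2 had a change of -0.93 ± 0.16 log2 (adjusted p = 0.00183), below the minimum size. The ligand gene tig-3 was under the filter, at 0 to 0.0902 CPM.

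Of 12 modulators of the body size branch, 3 oscillated, near the 22.7% of all tested genes, and 2 fell, against 10.8%. The chordin-like crm-1, which promotes DBL-1 signalling, did both, at 1.45 ± 0.21 log2 peaking at 32.5 ± 0.19 h (edgeR adjusted p = 0.00561) and -1.1 ± 0.24 log2 (adjusted p = 0.00573). Its fall was -0.81 log2 without the 18 h library, -0.99 log2 without the 32 h library and -0.87 log2 with a period of 7.5 h, and with no time term the cycle was lost (adjusted p = 0.0942). The tetraspanin gene tsp-14 oscillated by 1.77 ± 0.27 log2 around a peak of 26.5 ± 0.19 h, a call kept in 21 of 21 alternatives. Levels of tsp-14 were lowest at 22 h (12.96 CPM) and 30 h (9.57 CPM), the libraries in which sma-3 was highest, and highest at 26 h (44.3 CPM) and 34 h (36.9 CPM). Of the other tetraspanin genes, tsp-21 fell by 1.1 ± 0.27 log2 and tsp-12 had a change of -0.39 ± 0.12 log2. The change of tsp-21 was -0.73 log2 without the 18 h library and -0.84 log2 without the 34 h library. With a period of 7.5 h it was -0.97 log2. The cycles of tsp-21 and tsp-12, 0.91 ± 0.24 and 0.47 ± 0.11 log2, met the p threshold (edgeR adjusted p = 0.0474 and 0.0319) but not the minimum size. That of tsp-21 was called in 4 of 21 alternatives. Differences between the tetraspanin genes were not tested. The protease gene adt-2, in which mutants are small, oscillated by 1.04 ± 0.23 log2 (edgeR adjusted p = 0.0268). That call was lost with periods of 7.5 h and 8.5 h and without any 1 of the libraries from 20 h to 28 h or that of 34 h, at 0.80 to 1.08 log2. The most abundant, the proprotein convertase gene bli-4, had 92.9 to 182 CPM and was not called. The coreceptor genes unc-40 (neogenin) and drag-1 (RGM) had changes of -0.46 ± 0.14 and -0.99 ± 0.29 log2, which were not called, and that of drag-1 was called in 7 of 20 alternatives.

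In the list of downstream body size genes, 4 of the 5 genes called as oscillating were cuticle collagens. In all, 5 of the 9 listed genes oscillated (6 by DESeq2), against 22.7% of all tested genes, and the median difference was 3.36 log2. The 9 include kin-29 and egl-4, whose place before or after the Smads was not tested. Their cycles of 0.42 ± 0.19 and 0.82 ± 0.13 log2 were not called, though that of egl-4 was with total counts (1.11 log2). The collagen gene col-41, whose expression depends on DBL-1 signalling, had 318, 3054, 376, 90.3, 2349, 4168, 667, 31.4, 11.0 and 21.7 CPM. It was high at 20 h and from 26 h to 28 h and stayed at or under 31.4 CPM from 32 h to 36 h. Neither its cycle nor its trend was called (adjusted p = 0.285 and 0.512), except with quadratic time (5.05 log2, adjusted p = 0.0276). The collagen genes col-141 and col-142 had peaks at 30.8 h and 31.2 h. For col-142 the difference was 5.28 ± 0.53 log2 (edgeR adjusted p = 0.00214) and it rose by 2.24 ± 0.58 log2, a rise lost without the 32 h or the 36 h library (1.96 and 2.11 log2) and with a period of 8.5 h (1.92 log2). For col-141 the difference was 3.36 ± 0.78 log2 (adjusted p = 0.0296), and leaving out any 1 of the 7 libraries from 22 h to 34 h ended the call, at 3.14 to 3.41 log2, as did a period of 8.5 h (2.67 log2). The collagen genes lon-3 and rol-6, by contrast, peaked at 26.4 h and 26.9 h, and had their lowest or second lowest level at 22 h and 30 h. The gene mab-21, which acts in patterning of the male tail, oscillated by 1.855 ± 0.22 log2 around a peak of 31.4 h and fell by 1.21 ± 0.24 log2 (-0.97 log2 without the 36 h library). The secreted protein gene lon-1, which DBL-1 signalling represses, had a cycle of 1.25 ± 0.34 log2 that was not called (adjusted p = 0.0663), with 65.4 CPM at 34 h, its highest library, and 15.0 CPM at 30 h, its lowest. The lon-1 cycle was called by DESeq2 (1.24 log2), with a period of 7.5 h (1.41 log2) and without the 18 h library (1.57 log2). With no time term the cycles of mab-21 and col-141 also lost their calls (adjusted p = 0.0578 and 0.129), and with no cycle terms so did the trends of crm-1, tsp-21, col-142 and mab-21 (adjusted p = 0.15, 0.0671, 0.362 and 0.395).

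**Figure D5:**
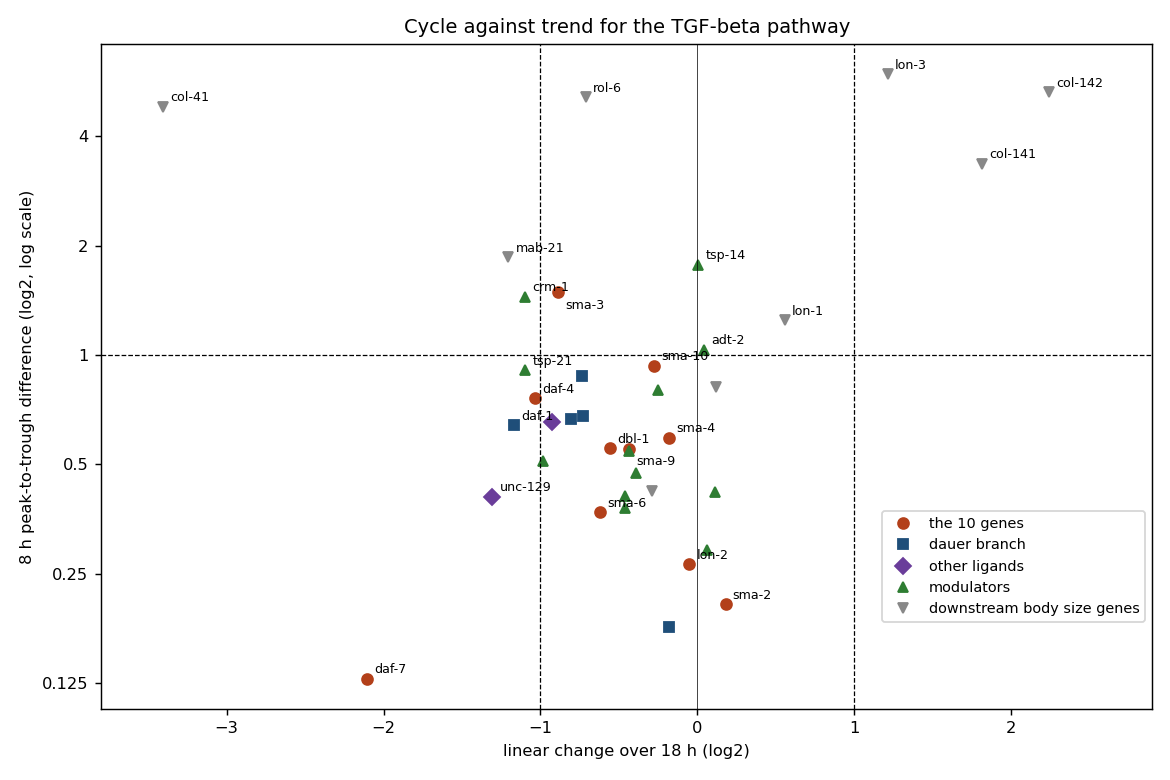
Fitted 8 h difference (vertical, log2 on a log axis) against linear change over 18 h (horizontal, log2) for the 10 genes and for the tested genes of 4 further lists, with dashed lines at the size required for a call. Downstream collagens lie at the top, sma-3 at 1.49 log2 with mab-21 and crm-1 near it, and daf-7 at the lower left.

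Epidermis, the tissue in which the Smads act on body size, also held cycling genes. Of 6 epidermal markers 4 oscillated, against 22.7% of all tested genes. With total counts 3 did, against 25.6%, and by DESeq2 5 did, against 22.7%. Their peaks differed. The spectraplakin gene vab-10 peaked at 31.1 h and was high at 22 h and 24 h (1539 and 1430 CPM) and at 30 h and 32 h (2022 and 1560 CPM). The patched-related gene che-14 peaked at 26.4 h and was lowest at 22 h and 30 h (2.57 and 2.19 CPM), the libraries in which sma-3 was highest. The zinc-finger gene lin-26 peaked at 26.1 h and was lowest at 30 h (26.4 CPM). Its cycle of 1.03 ± 0.15 log2 was called in 14 of 21 alternatives, with 0.81 to 0.99 log2 where the call was lost. The gene mup-4, which attaches muscle to epidermis, peaked at 28.7 h. The GATA factor genes elt-1 and elt-3 were not called as oscillating in the main edgeR fit (0.63 ± 0.25 and 1.51 ± 0.47 log2). The cycle of elt-3 was called in 1 of 21 alternatives, by DESeq2 (1.52 log2, adjusted p = 0.0488). The linear change of elt-1 was called as a fall, as given above. Levels of elt-3 were high at 18 h (32.8 CPM), 22 h (34.2 CPM) and 30 h (26.96 CPM), and lowest at 36 h (5.57 CPM). The part of epidermal makeup in the course of sma-3 was not tested. TMM factors were highest at 22 h (1.16) and 30 h (1.11), so that a level set by total counts alone would be higher at those times.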

How the data were processed

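Footprints of about 28-30 nucleotides came from purified monosomes of whole worms, per the labels' protocols. Bowtie is the tool in the submitters' processing notes, without a version or a role. The genome build and the counting of shared reads are not given in sources used here, and coordinates are left out. The authors deposited raw counts per gene and library. They also deposited log2 values, which equal the counts scaled to the mean library total with 8 added, to within 5e-05. Symbols and coding lengths came from Ensembl 115, which lists 19513 of the 20182 identifiers. No sequence of these genes was used here.

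A gene was tested if 3 or more libraries exceeded the CPM that equals 10 counts in a library of median size. With R 4.3.3, edgeR 4.0.16 (TMM, robust quasi-likelihood) was fitted across all genes with 4 terms (a constant, time, and a cosine and sine with a period of 8 h), which leaves 6 residual degrees of freedom. Standard errors came from the fitted weights and the posterior dispersion. Benjamini-Hochberg adjustment took in all 13958 tested genes. The p-values measure scatter around the curve, and nothing in the labels says that libraries came from separate cultures. The script was tested on simulated data. Alternatives used DESeq2 1.42.0, limma 3.58.1, other factors, filters, periods and terms, and left out each library. Python 3.11.15 gave the descriptions and figures. Single genes were named by a fixed rule: the 10 genes, called and most abundant members of 4 further pathway lists, the 3 genes most like each oscillating one, and tissue markers. Other members of the 4 lists and single markers, when named, were chosen after their values were seen. The genes, lists and tests were chosen with earlier results of these data known.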

Additional observations from a re-analysis of the deposited data

How the results depend on the processing

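The count of oscillating genes among the 10 was 1. It was 3 with total counts alone (25.6% of all tested genes), 3 with limma on the deposited values (22.2%), 2 with quadratic time (20.5%), 0 with no time term (14.8%) and 3 with no minimum size (34.4%), against 22.7% as reported above. It was 0 to 2 when 1 library was left out (17.7% to 22.4%). The count with a trend, each a fall, was 2, against 10.8% of all tested genes that fell. It was 1 with median-ratio factors (9.82%), by DESeq2 (10%) and with a period of 7.5 h (10.4%). In those settings the size of daf-4 was just under 1 log2. The count was 3 with total counts alone (17.4%) and with limma on the deposited values (15.2%). It was 1 to 3 when 1 library was left out (9.13% to 11.2%). These differences came from calls of sma-3, daf-4 and sma-10 that were lost or gained. Uncalled linear changes near 0 turned sign: that of sma-2 was -0.133 log2 with total counts and -0.129 log2 on the deposited values, that of lon-2 was 0.00726 log2 with median-ratio factors and 0.00382 log2 by DESeq2. Without 1 library it ran from -0.184 to 0.0661 log2 for lon-2 and from -0.505 to 0.0952 log2 for sma-4. The cause was not tested. The shallow counts of dbl-1, 56 to 139 a library, limit what its course can show. No paired analysis was possible because each time has 1 library.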
